A study of Mus musculus with 12 samples.

Results

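The nuclear genes that encode subunits of the oxidative phosphorylation machinery were examined in mouse bone marrow macrophages by RNA sequencing. Members were the genes whose symbols name a subunit of complex I (Ndufa, Ndufb, Ndufc, Ndufs or Ndufv followed by a number), complex II (Sdha to Sdhd), complex III (Uqcr), complex IV (Cox4 to Cox8) or complex V (Atp5), and that reached at least 1 CPM (counts scaled to a library total of 1e+06) in at least 2 of the 12 libraries. The files list 24421 genes, of which 84 matched the names and 77 passed the level. Complex I contributed 35 members, complex II 4, complex III 8, complex IV 13 and complex V 17. The 77 members included Atp5s and Atp5sl, which carry ATP synthase names but are not core subunits of the enzyme. RefSeq lists them as Dmac2l and Dmac2, and they are counted here with complex V by name only. The subunits that mitochondrial DNA encodes were not analysed here.

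The study asked what miR-182, a microRNA, does in osteoclast precursors, the macrophages that fuse into bone-resorbing osteoclasts when they meet the cytokine RANKL. Each of 6 conditions had 2 libraries, all from bone marrow macrophages described as C57BL/6. The cells were grown with M-CSF, a survival factor for macrophages, for 3 days. Wild-type (WT, Mir182+/+LysMcre(+)) and knockout (KO, Mir182flox/floxLysMcre(+)) cells were sequenced without RANKL (basal) and after RANKL for 5 days. Control (LysMcre(+)) and transgenic (mTg, LSL-Mir182LysMcre(+)) cells were sequenced at baseline only. All 6 conditions carry LysMcre, in which the lysozyme M promoter drives Cre in myeloid cells, so that Mir182 is deleted in KO cells and a transgenic Mir182 copy is switched on in mTg cells once Cre removes a stop cassette. The study describes the 2 libraries of a condition as independent biological replicates. In the labels replicate 1 is polyA RNA and replicate 2 is total RNA, processed with different tools. The p-values below rest on the spread between the 2 libraries. Except where a replicate term is named, that spread includes the difference in RNA type and tools.

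Oxidative phosphorylation is the last stage of aerobic energy metabolism in the inner mitochondrial membrane. Complexes I and II pass electrons from NADH and succinate to coenzyme Q, complex III passes them to cytochrome c and complex IV to oxygen, and complexes I, III and IV pump protons as they do so. Complex V, the ATP synthase, makes ATP from the proton gradient. Osteoclasts are known for their many mitochondria, and acidifying the bone surface costs them ATP.

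The 12 libraries held between 24951280 and 33050619 reads on genes. At that depth 3 reads correspond to 0.0908 to 0.12 CPM, a bound that covers counting error only, and 73 of the 77 members stayed at or above 10 CPM in every library. Mir182 was listed at 0 in all but 1 of the WT, KO and Control libraries, that one being a KO library at 0.037 CPM, a single read, and at 2.39 and 4.4 CPM in the mTg libraries. The row therefore shows the transgene, but it cannot show the deletion, since WT libraries were at 0 too. Macrophage markers were present in every condition (6 genes, summed level 5620 to 8470 CPM). The summed level of 6 osteoclast markers was 9.62 to 31.7 CPM in the 4 basal conditions, 9120 to 9600 CPM in WT after RANKL and 2940 to 2950 CPM in KO after RANKL. The summed level of 5 neutrophil markers was 76.1 to 98.3 CPM in basal WT and KO cells, 18.5 to 18.6 CPM in WT and 5.31 to 5.68 CPM in KO after RANKL, 48.3 to 50 CPM in Control and 101 to 112 CPM in mTg cells. Fibroblast markers summed to 1.36 to 36 CPM and B cell markers to at most 3.67 CPM. T cell and erythroid markers summed to at most 0.179 CPM, with 4 of 5 erythroid markers at 0 in every condition. Of the osteoclast markers Calcr was at 0 in the basal conditions. The 3 endothelial markers, of which Kdr made up most, summed to 4.68 to 9.14 CPM in the basal conditions, 24.4 to 26.5 CPM in WT and 106 to 107 CPM in KO after RANKL.

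The WT RANKL libraries stood apart from the WT basal libraries in a pair of genes that did not follow RANKL in KO cells. Lyz2, the lysozyme M gene whose promoter drives Cre here, was at 44.0 and 39.8 CPM in WT basal and at 4117 and 4288 CPM in WT RANKL libraries. KO cells had 34.6 and 31.2 CPM at baseline and 23.98 and 22.5 CPM after RANKL, whereas Control and mTg libraries had 5783 to 7062 CPM. Ifi202b, an interferon-inducible gene, showed the opposite order, at 112 and 93.4 CPM in WT basal, 82.1 to 152 CPM in the 4 KO libraries, 1.117 and 0.972 CPM in WT RANKL and at most 0.091 CPM in Control and mTg libraries. In these genes the WT RANKL libraries were thus like Control and mTg, although they carry the same genotype label as WT basal. What set these levels, and whether the mice of all libraries shared a background, was not tested, nor was the part of this difference in the results. Every comparison of WT RANKL rests on these 2 libraries and cannot be made without them, while KO RANKL against KO basal and KO against WT at baseline were refitted without them.

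The members differed widely in level. On the deposited RPKM scale, which divides by gene length and was given for the first replicate of each condition, the median over 6 libraries ran from 1.63 for Cox6a2 to 469 for Atp5b. Atp5b, the catalytic beta subunit of ATP synthase, and Atp5a1, the alpha subunit beside it in the head, led with 469 and 361 RPKM, followed by the complex IV subunits Cox6b1 (351), Cox6a1 (301), Cox4i1 (298) and Cox8a (216). Ndufa4, which is named for complex I but is also found with complex IV, was at 176 RPKM. By complex, the median member stood at 56.8 RPKM in complex I, 97.2 in complex II, 102 in complex III, 106 in complex IV and 115 in complex V. Of paired isoforms, 1 dominated in each case. The widely expressed Cox6a1 was at 301 RPKM against 1.63 for the heart and muscle isoform Cox6a2, and Cox7a2 at 102 against 6.44 for the heart and muscle isoform Cox7a1. Atp5g3 (205 RPKM) exceeded Atp5g1 (39.5) and Atp5g2 (33.8), although all 3 genes encode the same membrane ring subunit of ATP synthase.

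Close to the level that defined membership, Cox6a2 had 1 CPM or more in 4 libraries (mean 0.85 CPM) and Cox7a1 in all 12 (mean 2.79 CPM). Just outside, Cox6b2 passed 1 CPM in 1 library, at 1.15 CPM, and Cox4i2 in none, at most 0.641 CPM. Ndufa4l2 reached at most 0.144 CPM. Cox7b2, Cox8b, Cox8c and Ndufs5 were listed at 0 in all 12 libraries. Ndufs5 encodes a subunit of complex I that cells with mitochondria use in general, and its entry says only that it is listed at 0. In the GENCODE vM21 annotation (GRCm38), exons of 28 of the 77 members overlap exons of another gene, 25 of them on the opposite strand, and whether reads were counted by strand is not given in the sources used here. Many of these genes also have processed pseudogenes, to which reads can align as well.

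The members lie on 19 chromosomes, with at most 7 on one (chromosome 7). Windows of 300 bases around the transcription start (250 before and 50 after, RefSeq, GRCm38.p6) were given for 65 of the 77. Each was searched on both strands for 4 motifs of factors known to regulate nuclear genes of respiration: NRF1 (CGCANGCGC), GABP of the ETS family (CCGGAAGT), the estrogen-related receptors ERR (TCAAGGTCA) and YY1 (AAGATGGCG). The motifs do not contain one another, and NRF1 reads nearly alike on both strands, so that matches can overlap. NRF1 letters were in 35.4% of the 65 members, against 7.12% of all 27025 genes with a window and 15.9% of the 9384 that also passed the level filter of the WT and KO fit. YY1 letters were in 12.3% of members, 1.64% of all genes and 3.82% of the filtered genes. GABP letters were in 7.69% of members against 4.31% and 9.71%, and ERR letters in 3.08% against 0.466% and 0.32%. In all, 32 of the 65 had at least 1 match. These shares describe letters in a window, with no test. Between WT RANKL and WT basal libraries, the median log2 difference was 0.73 for members with NRF1 letters and 0.69 for those without. The same medians were 0.59 and 0.73 for YY1, 0.83 and 0.68 for GABP, and 1.21 and 0.68 for ERR, which only 2 members had. These medians were not tested either. The 4 windows below are 2 of the 4 that held 3 NRF1 matches each, and the only 2 with an ERR match. The other 2 with 3 NRF1 matches were those of Cox6a1 and Ndufb4. Log2 differences in WT after RANKL were 1.03 for Sdha and 1.1 for Uqcrc1, against 0.61 for Cox6a1 and 0.51 for Ndufb4. In Uqcrc1 2 of the 3 matches overlap on opposite strands. The letters in capitals are the NRF1 and ERR matches, in Sdha and Uqcrc1 all NRF1, and in Sdhd and Atp5g3 1 NRF1 and 1 ERR match each, the ERR match reading TGACCTTGA on this strand.
Sdha, chr13:74350191-74350490, minus strand: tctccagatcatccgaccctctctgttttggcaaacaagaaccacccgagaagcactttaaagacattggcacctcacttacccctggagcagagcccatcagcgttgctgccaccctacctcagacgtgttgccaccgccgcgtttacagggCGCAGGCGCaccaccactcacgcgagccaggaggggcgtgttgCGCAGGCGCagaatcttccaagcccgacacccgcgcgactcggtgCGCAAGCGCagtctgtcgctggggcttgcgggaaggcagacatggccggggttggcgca
Uqcrc1, chr9:108936398-108936697, plus strand: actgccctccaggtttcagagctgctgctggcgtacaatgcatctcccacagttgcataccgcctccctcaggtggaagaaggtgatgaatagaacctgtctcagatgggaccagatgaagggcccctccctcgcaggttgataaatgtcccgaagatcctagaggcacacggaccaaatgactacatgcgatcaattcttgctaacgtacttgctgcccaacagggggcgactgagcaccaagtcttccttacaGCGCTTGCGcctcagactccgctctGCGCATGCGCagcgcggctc
Sdhd, chr9:50603800-50604099, minus strand: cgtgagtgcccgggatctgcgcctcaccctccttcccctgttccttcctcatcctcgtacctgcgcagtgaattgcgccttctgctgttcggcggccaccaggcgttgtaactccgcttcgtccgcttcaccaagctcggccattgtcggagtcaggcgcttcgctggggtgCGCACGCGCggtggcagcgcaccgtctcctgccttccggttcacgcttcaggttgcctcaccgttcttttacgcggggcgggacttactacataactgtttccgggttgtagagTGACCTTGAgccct
Atp5g3, chr2:73911277-73911576, minus strand: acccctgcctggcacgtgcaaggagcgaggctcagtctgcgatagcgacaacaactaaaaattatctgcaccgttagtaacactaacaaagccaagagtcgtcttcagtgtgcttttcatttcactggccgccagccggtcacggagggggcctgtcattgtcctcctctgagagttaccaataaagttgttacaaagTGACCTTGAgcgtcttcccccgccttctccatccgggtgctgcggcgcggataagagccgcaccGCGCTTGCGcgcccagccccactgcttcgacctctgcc
Among the members whose responses stand out below, the windows of Sdhb, Atp5b and Cox7a2l held none of the 4 motifs.

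The mature miR-182 that the knockout removes and the transgene supplies is shown with its seed, bases 2 to 8, in capitals (RefSeq, GRCm38.p6).
miR-182-5p, chr6:30165962-30165986, minus strand: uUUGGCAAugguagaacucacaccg
The seed pairs with TTGCCAA in a transcript. That 7-letter site was in a 3′ untranslated region of 3 of the 77 members (3.9%), against 11.4% of 21025 protein-coding genes of GENCODE vM21. They were Ndufb2, Sdhc and Uqcrq. The sites of Sdhc and Uqcrq are shown with the bases that flank them, the site in capitals.
Sdhc, first match: tttgatagatttTTGCCAActctggagtaa
Sdhc, second match: ctgagtcaggccTTGCCAAgtacccagccc
Uqcrq: ttatctgtcatgTTGCCAAtccaacagtgg
A match is a description of letters and not of binding. Sdhc CPM was 78.5 and 114 in WT basal and 98.6 and 129 in KO basal libraries, and 114 and 143 in Control against 119 and 142 in mTg. Uqcrq CPM was 41.6 and 57.5 in WT basal and 43.4 and 52.2 in KO basal, and 56.5 and 69.5 in Control against 47.9 and 65.8 in mTg. For both genes the groups overlapped and neither comparison passed the test, while with the replicate number as a term Sdhc was higher in KO (adjusted p = 5.6e-05) and Uqcrq lower in mTg (adjusted p = 0.022).

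Summed over the 77 members, the level was 6289 and 7064 CPM in WT basal and 11644 and 13170 CPM in WT RANKL libraries. KO libraries had 6310 and 6979 CPM at baseline and 7506 and 8423 CPM after RANKL. Control libraries had 7268 and 8084 CPM and mTg libraries 7282 and 7883 CPM. The subunit transcripts thus took 1.16% and 1.32% of the reads in WT after RANKL and 0.629% to 0.842% in the other 10 libraries. Between same-numbered libraries, WT RANKL exceeded WT basal 1.85-fold and 1.86-fold, and KO RANKL exceeded KO basal 1.19-fold and 1.21-fold. In bulk RNA a change in the share of a cell type cannot be told apart from a change of RNA per cell.

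**Figure D1:**
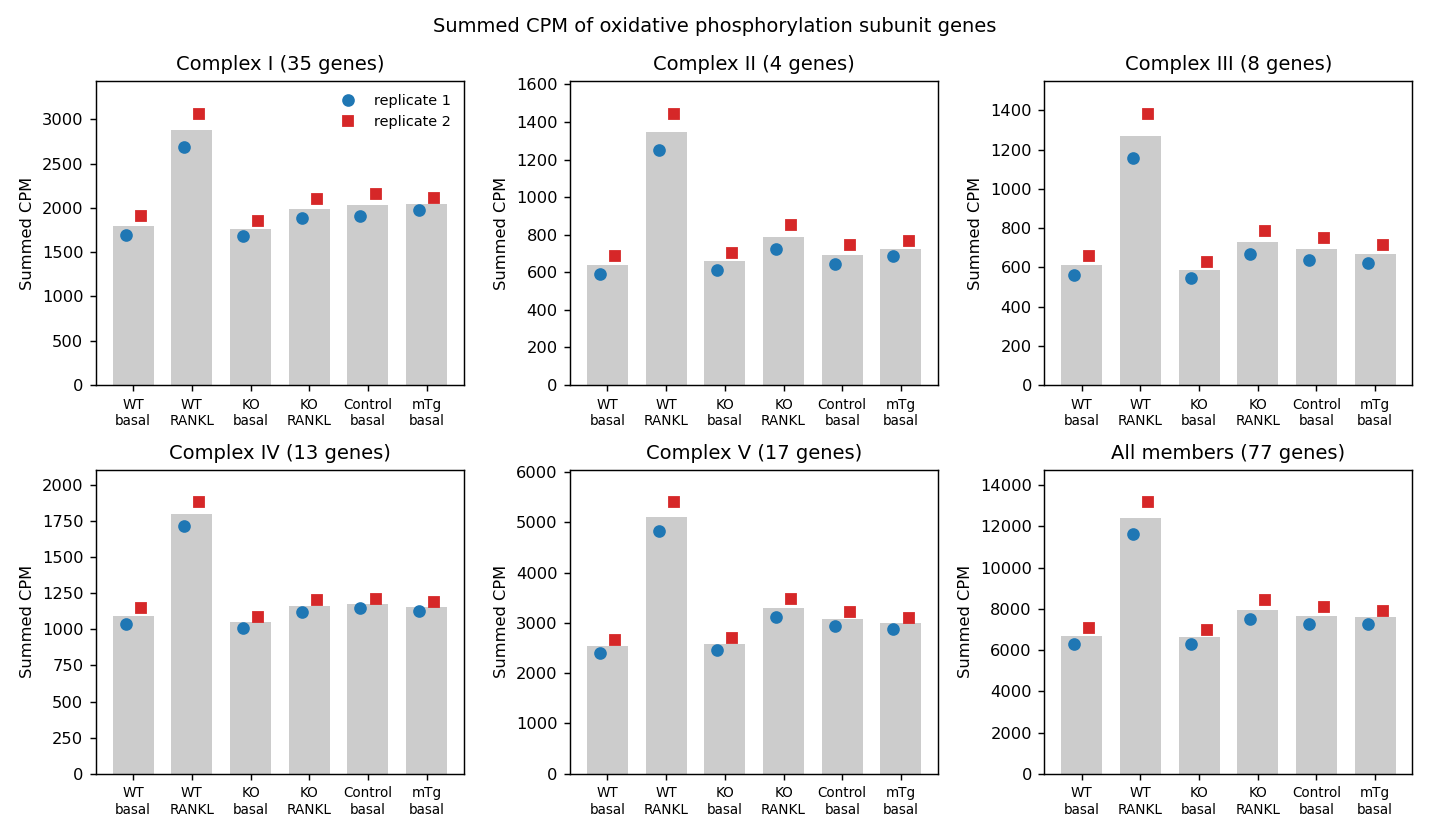
Summed CPM (vertical axis, from 0) of the members of each complex and of all 77 members in the 6 conditions (horizontal axis). Circles are replicate 1, squares replicate 2 and bars their mean. In every panel both WT RANKL libraries stand above the other 10.

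The first comparison asked which subunit genes differed between WT cells with and without RANKL. By limma on log2(CPM + 1), 58 of 77 members were higher after RANKL (adjusted p under 0.05), when 40.6% of the 11691 genes tested were. Only Cox6a2 was called lower, when 22.0% of all genes were. The members' median log2 difference was 0.72 and that of all genes 0.19, so that members stood 0.54 above it, and 75 of 77 were positive, against 62.6% of all genes. With CPM divided by TMM factors, which rescale each library so that most genes do not differ, the median of all genes moved to 0 and that of the members to 0.52, and 44 members were higher (28.8% of all genes) and 1 lower (30.5% of all genes). On that scale 69 of 77 members were positive, against 49.7% of all genes. By edgeR on the whole reads recovered from CPM, 3356 of all genes were higher and 3561 lower, where limma without composition factors had 4741 and 2571. Adding the replicate number as a term, 71 were higher (52.8% of all genes).

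All complexes took part, with 23 of 35 members of complex I higher (median log2 difference 0.61), 4 of 4 of complex II (1.11), 8 of 8 of complex III (0.94), 11 of 13 of complex IV (0.64) and 12 of 17 of complex V (0.70). In summed CPM the ratio of WT RANKL to WT basal was 1.59 and 1.61 for complex I, 1.65 and 1.64 for complex IV, 2.01 and 2.03 for complex V, 2.07 and 2.10 for complex III and 2.13 and 2.10 for complex II. With TMM factors the ratios were smaller, at 1.377 and 1.393 for complex I, 1.423 and 1.42 for complex IV and 1.735 and 1.758 for complex V. They were then 1.786 and 1.819 for complex III and 1.839 and 1.821 for complex II. The differences between complexes were not tested.

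Complex V held the member with the largest response. Atp5b CPM was 634 and 715 in WT basal and 1607 and 1871 in WT RANKL, a log2 difference of 1.36 ± 0.13 (SE, adjusted p = 7.5e-05). Atp5a1, its partner in the head, went from 782 and 822 to 1469 and 1540 CPM (log2 difference 0.91 ± 0.061, adjusted p = 1.6e-05). Atp5c1, the central shaft between them, went from 190 and 178 to 348 and 321 CPM (log2 difference 0.86, adjusted p = 7.6e-05). Control basal libraries had Atp5b at 885 and 1008 and Atp5a1 at 898 and 924 CPM, deposited as counts of a separate experiment and not tested against WT.

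The 3 genes of the membrane ring subunit all rose. Atp5g1 went from 20.1 and 24.9 to 53.1 and 63.9 CPM (log2 difference 1.34 ± 0.15, adjusted p = 0.00024) and Atp5g3 from 110 and 149 to 271 and 363 CPM (1.29 ± 0.22, adjusted p = 0.0018). Atp5g2 rose less, from 20.3 and 15.3 to 31.6 and 28.5 CPM (adjusted p = 0.003). The small subunits Atp5e and Atp5j2 did not pass the test and had replicates far apart. Atp5j2 was at 58.1 and 86.8 CPM at baseline and at 87.6 and 138 CPM after RANKL (adjusted p = 0.14, and 5.2e-12 with the replicate number as a term).

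In complex III, Uqcrc2, a core protein, went from 120 and 125 to 298 and 329 CPM (log2 difference 1.35 ± 0.090, adjusted p = 1.5e-05). Its partner Uqcrc1 went from 144 and 162 to 307 and 354 CPM (1.10 ± 0.11, adjusted p = 1e-04). Uqcrfs1, the Rieske iron-sulfur protein that carries electrons out of coenzyme Q, went from 59.7 and 83.6 to 135 and 181 CPM (1.13 ± 0.22, adjusted p = 0.003). In each case both RANKL libraries were above both basal ones.

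Complex II, which is also succinate dehydrogenase of the citric acid cycle, rose in all 4 subunits. The flavoprotein Sdha went from 319 and 326 to 642 and 678 CPM (1.03 ± 0.063, adjusted p = 9.9e-06) and the iron-sulfur protein Sdhb from 91.8 and 106 to 205 and 230 CPM (1.13 ± 0.12, adjusted p = 0.00014). The membrane anchors moved alike, Sdhc from 78.5 and 114 to 178 and 230 CPM (1.09 ± 0.23, adjusted p = 0.0049) and Sdhd from 100 and 142 to 228 and 308 CPM (1.14 ± 0.25, adjusted p = 0.0059).

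In complex I the response followed the subunit. Ndufv1, which binds NADH and the flavin, went from 48.9 and 62.3 to 123 and 147 CPM (1.27 ± 0.18, adjusted p = 0.00068). The core subunits Ndufv2 (68.5 and 61.3 to 142 and 129 CPM, 1.05 ± 0.10, adjusted p = 9.6e-05) and Ndufs1 (101 and 108 to 198 and 216 CPM, 0.98 ± 0.082, adjusted p = 4.7e-05) rose as well. Ndufs3 (18.6 and 21.5 to 34.8 and 37.8 CPM, adjusted p = 0.00028) and Ndufs7 (34.2 and 50.7 to 65.0 and 89.2 CPM, adjusted p = 0.017) rose too. The call of Ndufs7 was lost in 4 alternatives, among them TMM factors (adjusted p = 0.053) and the fits without WT basal replicate 1 or WT RANKL replicate 2. The core subunit Ndufs8 did not follow, with 61.1 and 67.6 CPM at baseline and 61.2 and 67.6 CPM after RANKL. Ndufv3, an accessory subunit, was at 73.4 and 67.9 CPM before and at 76.3 and 68.1 CPM after.

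In complex IV, the nuclear-encoded subunit Cox5a went from 51.2 and 86.6 to 115 and 173 CPM (1.08 ± 0.31, adjusted p = 0.02). That call was lost in 3 alternatives, among them the fits without WT basal replicate 1 or WT RANKL replicate 2. Cox6b1 went from 166 and 157 to 257 and 230 CPM (0.59 ± 0.080, adjusted p = 0.00056) and Cox7a2 from 55.4 and 74.1 to 111 and 154 CPM (1.02 ± 0.24, adjusted p = 0.0083). Cox5b went from 28.1 and 28.3 to 51.9 and 50.4 CPM (adjusted p = 0.00036). Of the isoforms of subunit 6a, Cox6a1 rose from 140 and 146 to 215 and 223 CPM (0.61 ± 0.072, adjusted p = 0.00026), whereas Cox6a2 was at 1.19 and 0.842 CPM at baseline and at 0.399 and 0.396 CPM after RANKL. Among the WT and KO libraries Cox6a2 reached 1 CPM in basal ones only, so that the level filter favoured a lower value after RANKL and nothing is read from its call. Exons of Cox6a2 overlap those of Itgad on the opposite strand by 70 bases.

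The second comparison asked the same of KO cells, and it does not rest on the WT RANKL libraries. In KO cells 19 of 77 members were higher after RANKL (30.4% of all genes) and 2 were lower (26.4% of all genes). The members' median log2 difference was 0.20 beside 0.05 for all genes. Without both WT RANKL libraries in the fit the counts were 18 and 2, with no share of all genes given beside them, and the median was 0.20. With TMM factors 13 were higher (28.3% of all genes). In the fit with a replicate term, 51 members were higher (42.7% of all genes) and 7 lower (36.3% of all genes). The members' share of higher calls, below that of all genes without the term, was thus above it with the term. Leaving out 1 library, the members' median ran from 0.12 to 0.26.

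The largest called differences included those of the ring subunit, the catalytic subunit and a complex III core protein. Atp5g1 rose from 21.0 and 26.8 to 40.9 and 43.4 CPM (log2 difference 0.80 ± 0.15, adjusted p = 0.0036), Atp5b from 672 and 784 to 991 and 1167 CPM (0.57 ± 0.13, adjusted p = 0.0068) and Uqcrc2 from 114 and 122 to 153 and 176 CPM (0.47 ± 0.090, adjusted p = 0.0035). Ndufv1 went from 49.6 and 60.9 to 69.9 and 90.9 CPM (0.53 ± 0.18, adjusted p = 0.04), a call lost in 6 alternatives, without KO basal replicate 1 (adjusted p = 0.19) or KO RANKL replicate 2 (0.21) and, at adjusted p of 0.054 to 0.063, with TMM factors, quantile normalization, no level filter or edgeR on the recovered reads. Sdha went from 324 and 333 to 380 and 408 CPM (0.26 ± 0.063, adjusted p = 0.01), lost without either of the same libraries (0.063 each).

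Not all members took part. Sdhb was at 89.9 and 106 CPM in KO basal and at 90.2 and 103 CPM in KO RANKL, the only subunit of complex II that stayed level in both pairs of libraries. Cox4i1, the largest nuclear-encoded subunit of complex IV, was at 225 and 296 CPM before and 206 and 273 CPM after (adjusted p = 0.67). Once the replicate number entered the fit, Cox4i1 was lower (adjusted p = 0.00085). The members called lower were Cox6a2 and Ndufv3. Cox6a2 was at 1.15 and 1.27 CPM before and at 0.591 and 0.472 CPM after, under the same limit of the filter. Ndufv3 fell by 0.31 ± 0.096 (adjusted p = 0.027), from 67.4 and 64.1 to 56.6 and 49.3 CPM, and this call was lost without KO basal replicate 1 (0.12), KO basal replicate 2 (0.065) or KO RANKL replicate 2 (0.15).

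**Figure D2:**
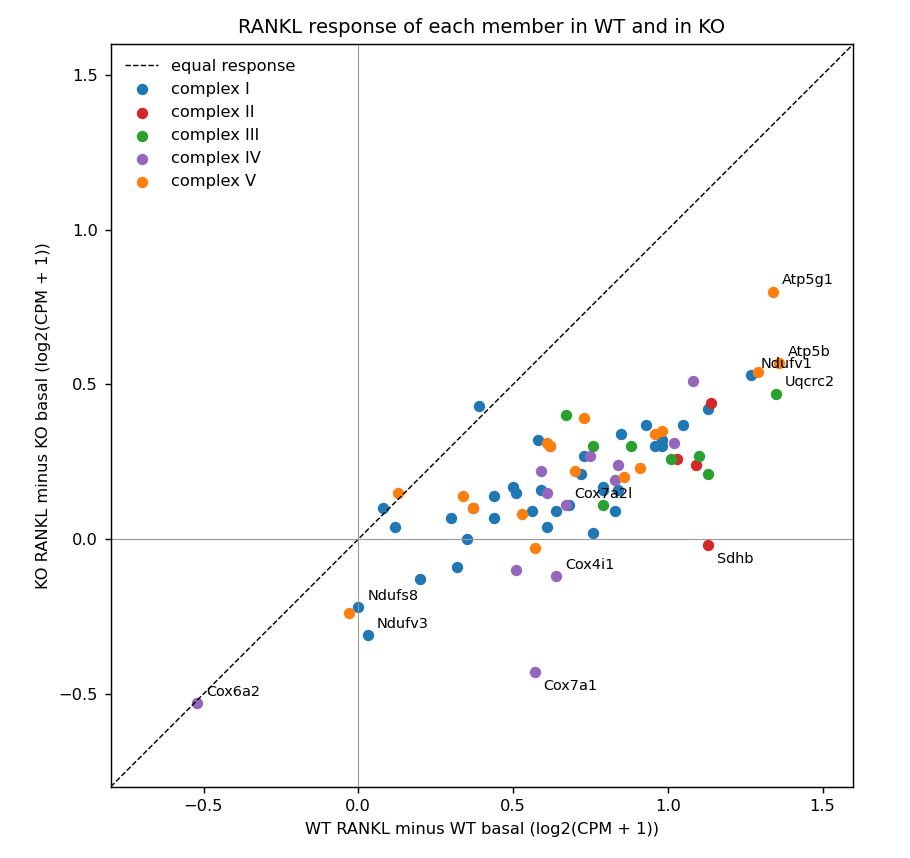
Each point is 1 of the 77 members, with its log2 difference between RANKL and basal libraries in WT (horizontal axis) and in KO (vertical axis), in colours by complex, and the dashed line marks equal responses. Most points lie right of the line, Sdhb at 1.13 in WT and -0.02 in KO.

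At baseline the members hardly separated KO from WT. None was higher (2.71% of all genes) and Cox7a2l was lower (1.10% of all genes), and the median log2 difference was -0.02 beside 0.01 for all genes. Summed CPM in KO was 1.003 and 0.988 times that of WT. At an unadjusted p under 0.05 there were 0 members higher and 4 lower by limma. The share of all genes at that level is not given here, so nothing is read from this count. With the replicate number as a term 3 members were higher (18.6% of all genes) and 8 lower (12.7% of all genes). Without both WT RANKL libraries 0 were higher and 1 lower, with no share of all genes given beside them.

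Cox7a2l, which helps complexes III and IV join into supercomplexes and is counted here with complex IV by its name, was at 94.6 and 77.7 CPM in WT basal and at 49.9 and 53.8 CPM in KO basal libraries (log2 difference -0.72 ± 0.11, adjusted p = 0.021). It lies on chr17:83501917-83514333 (GRCm38.p6). The call was lost without WT basal replicate 1 (adjusted p = 0.097), KO basal replicate 1 (0.15) or KO basal replicate 2 (0.1). After RANKL the gap was wider, with 144 and 130 CPM in WT against 52.7 and 59.4 CPM in KO. Control libraries had 61.1 and 53.2 CPM and mTg libraries 44.8 and 46.6 CPM, from a separate experiment not tested against WT or KO. The 4 WT libraries were thus above the other 8, WT RANKL included, unlike for Lyz2 and Ifi202b. What set this difference was not tested.

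**Figure D3:**
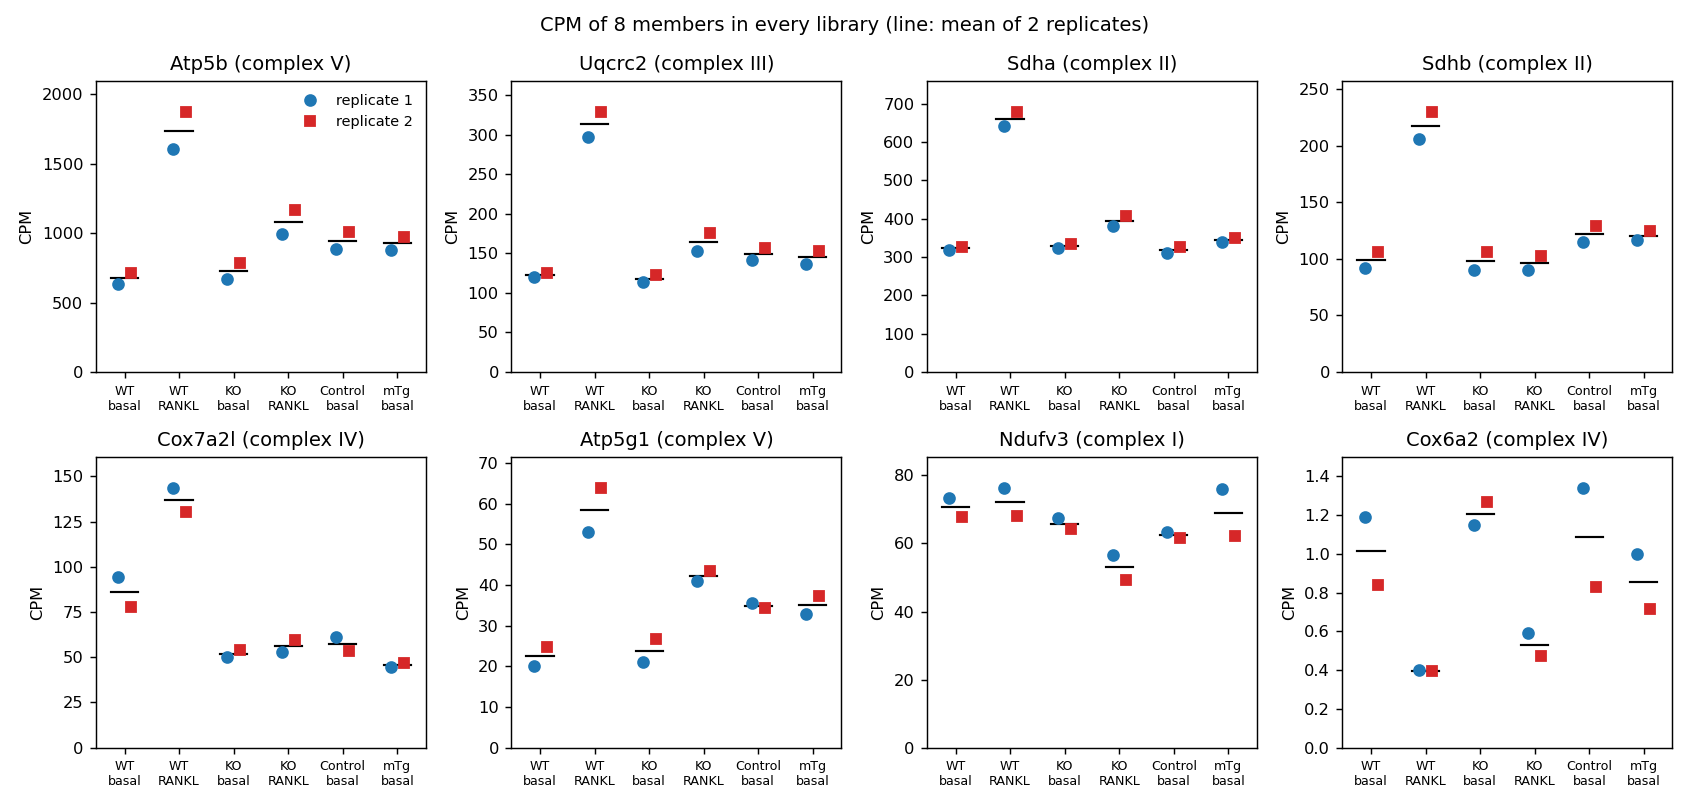
CPM (vertical axes, from 0) of 8 members in the 6 conditions. Circles are replicate 1, squares replicate 2 and lines the mean. Sdhb is at 205 and 230 CPM in WT RANKL and at 90.2 and 103 CPM in KO RANKL, and Cox7a2l is at 77.7 CPM or more in the 4 WT libraries and at 61.1 CPM or less in the other 8.

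The third comparison set KO against WT after RANKL, where 5 of the 6 osteoclast markers given above were also called lower in KO. Calcr levels overlapped, at 9.777 and 8.997 CPM in WT RANKL and 9.065 and 9.68 CPM in KO RANKL libraries. None of the 77 members was higher in KO (14.3% of all genes) and 43 were lower (30.9% of all genes). By complex, 16 of 35 were lower in complex I, 2 of 4 in complex II, 5 of 8 in complex III, 9 of 13 in complex IV and 11 of 17 in complex V. The members' median log2 difference was -0.54 and that of all genes -0.14, and 76 of 77 were negative, the exception being Cox6a2. Of all genes, 34.7% were positive. With TMM factors the median of all genes was 0, that of the members -0.39, and 34 members were lower (20.2% of all genes). On that scale 74 of 77 members were negative, while 49.7% of all genes were positive. Over all genes edgeR on the recovered reads called 2389 higher and 2362 lower, against 1668 and 3607 by limma. With the replicate number as a term 74 were lower (49.7% of all genes). Summed over all members, KO had 0.645 and 0.640 times the level of WT, and 0.724 and 0.705 times with TMM factors.

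Cox7a2l and Sdhb showed the largest differences, at -1.27 ± 0.11 (adjusted p = 0.00014) and -1.17 ± 0.12 (adjusted p = 0.00024) on the log2 scale. Both complex III core proteins were lower, Uqcrc2 with 153 and 176 CPM in KO against 298 and 329 CPM in WT (-0.93 ± 0.090, adjusted p = 0.00021) and Uqcrc1 with 176 and 191 against 307 and 354 CPM (-0.84 ± 0.11, adjusted p = 0.00077). Sdha stood at 380 and 408 against 642 and 678 CPM (-0.74 ± 0.063, adjusted p = 0.00011). In the head of ATP synthase, Atp5b differed by -0.69 ± 0.13 (adjusted p = 0.0039) and Atp5a1 by -0.65 ± 0.061 (adjusted p = 0.00018). In complex I, Ndufv2 differed by -0.64 ± 0.10 (adjusted p = 0.0021) and Ndufs1 by -0.61 ± 0.082 (adjusted p = 0.00097). Ndufs3 was lower in KO as well (adjusted p = 0.0023), while Ndufs7 was not called (adjusted p = 0.12, and 6.1e-08 with the replicate number as a term). The KO RANKL values of Sdha, Uqcrc2 and Atp5b nonetheless stood above those of KO basal libraries. Control basal libraries had Sdha at 310 and 326, Uqcrc2 at 142 and 157 and Atp5b at 885 and 1008 CPM.

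**Figure D4:**
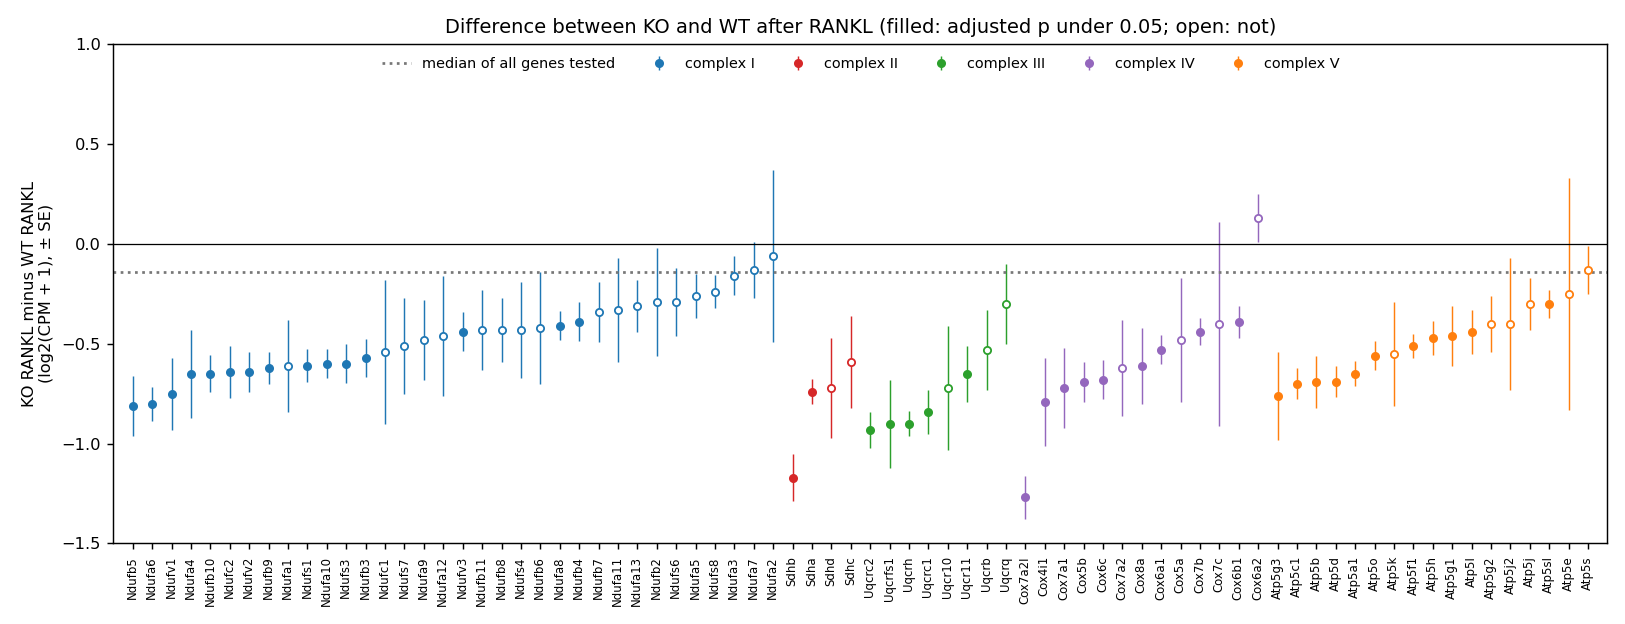
Log2 difference between KO and WT after RANKL (vertical axis) with its standard error for 76 of the 77 members (horizontal axis, ordered within complex). Filled points passed adjusted p under 0.05, open points did not, and the dotted line is the median of all genes, -0.14. All but Cox6a2 lie below 0.

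Whether the RANKL response itself differed between genotypes was examined by the interaction term. Its WT response rests on the WT RANKL libraries, whose Lyz2 and Ifi202b levels stood apart from those of WT basal libraries. The term cannot tell genotype apart from whatever set those libraries apart, and the part of the latter was not tested. The response was smaller in KO for 28 of 77 members (17.1% of all genes) and larger for none (7.44% of all genes), with a median difference of -0.56 beside -0.15 for all genes. With TMM factors 18 members had a smaller response (10.9% of all genes), and the medians were -0.39 and 0.01. EdgeR called 1133 larger and 1125 smaller responses over all genes, against 870 and 2005 by limma. With the replicate number as a term there were 71 (42.8% of all genes). The difference was -1.15 ± 0.17 for Sdhb (adjusted p = 0.0026), -0.88 ± 0.13 for Uqcrc2 (adjusted p = 0.0028), -0.83 ± 0.15 for Uqcrc1 (adjusted p = 0.0077) and -0.77 ± 0.089 for Sdha (adjusted p = 0.001). It was -0.69 ± 0.14 for Ndufv2 (adjusted p = 0.013), -0.68 ± 0.12 for Ndufs1 (adjusted p = 0.0057) and -0.68 ± 0.087 for Atp5a1 (adjusted p = 0.0016). For the heart and muscle isoform Cox7a1, at 2.262 and 2.004 CPM in WT basal, 3.47 and 3.85 in WT RANKL, 2.15 and 3.66 in KO basal and 1.51 and 2.204 CPM in KO RANKL, it was -1.01 ± 0.29 (adjusted p = 0.041). That call was lost in 12 alternatives, among them TMM factors (adjusted p = 0.075), edgeR on the recovered reads (0.08) and the fits without each WT library, KO RANKL replicate 1 or KO basal replicate 2 (0.078 to 0.12). It was -0.74 ± 0.14 for Ndufs3 (adjusted p = 0.0083) and -0.66 ± 0.11 for Atp5c1 (adjusted p = 0.0056). Cox5b (-0.64 ± 0.15, adjusted p = 0.019) and Cox6a1 (-0.47 ± 0.10, adjusted p = 0.015) were called too, but not with TMM factors (adjusted p = 0.063 and 0.094), nor without WT basal replicate 1 or some other single libraries (0.05 to 0.067). For Atp5b it was -0.80 ± 0.18 (adjusted p = 0.016), with adjusted p of 0.053 to 0.058 without WT basal replicate 1, KO RANKL replicate 1, WT RANKL replicate 2 or KO basal replicate 2. For Cox7a2l it was -0.56 ± 0.16 (adjusted p = 0.044), and this call held in only 1 of the 8 fits that left out a library and was lost with TMM factors (adjusted p = 0.13).

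**Figure D5:**
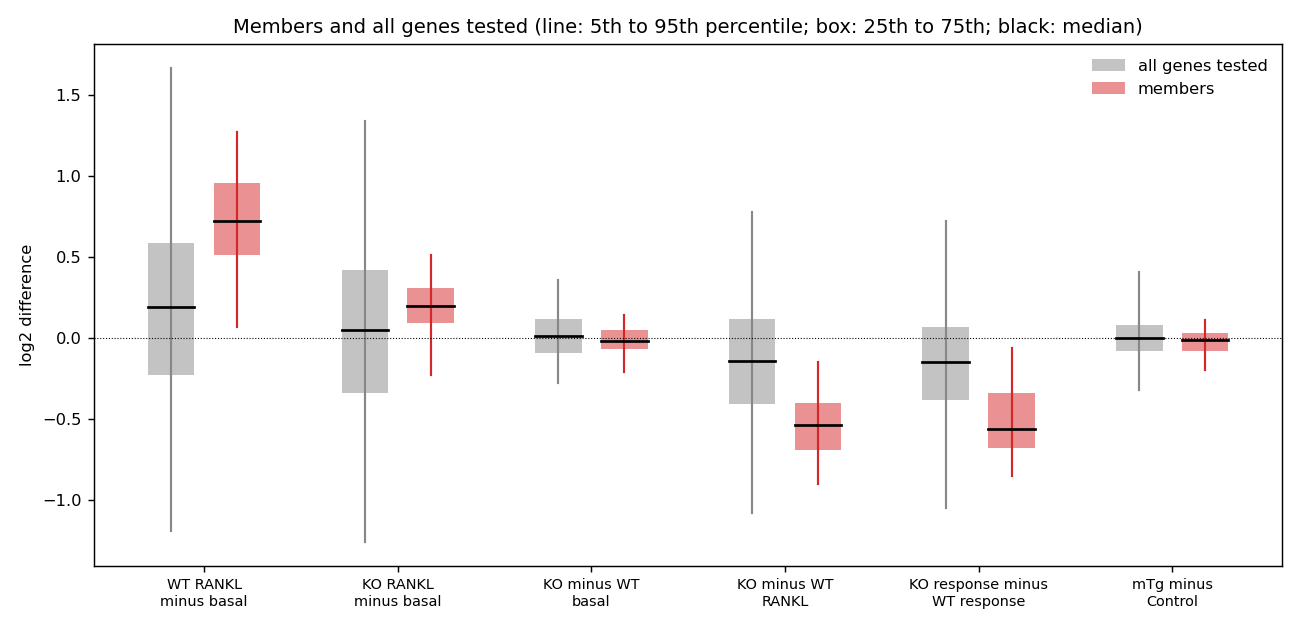
Log2 differences (vertical axis) of all genes tested, in grey, and of the 77 members, in red, in the 6 comparisons. Lines span the 5th to 95th percentile, boxes the 25th to 75th, and black bars are medians, 0.72 against 0.19 in WT after RANKL and -0.54 against -0.14 in KO against WT after RANKL.

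The fourth comparison asked whether extra miR-182 changed the members at baseline. By edgeR's quasi-likelihood test on the counts, no member was higher in mTg than in Control (0.0993% of 12081 genes) and none lower (0.157%). At an unadjusted p under 0.05 there were 0 members higher and 1 lower, a count without a share of all genes beside it, from which nothing is read. DESeq2 and limma called none at adjusted p under 0.05. The median log2 difference was -0.01 beside 0 for all genes, and the members ranged from -0.35 to 0.21. Summed CPM in mTg was 1.002 and 0.975 times that in Control. With the replicate number as a term 2 members were higher (6.94% of all genes) and 7 lower (8.15% of all genes). One of the 7 was Cox7a2l, at 61.1 and 53.2 CPM in Control and 44.8 and 46.6 CPM in mTg (log2 difference -0.33 ± 0.097, adjusted p = 0.48, and 0.00041 with the replicate term).

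Other genes of the same pathway were taken from fixed lists. Over all genes tested, 40.6% were higher in WT after RANKL, 30.4% were higher in KO after RANKL, and 30.9% were lower and 14.3% higher in KO than in WT after RANKL, and the counts of each list stand beside these shares. All 18 genes of the citric acid cycle and pyruvate dehydrogenase list were higher in WT after RANKL (median log2 difference 1.06), 13 were higher in KO after RANKL (0.39), and all 18 were lower in KO than in WT after RANKL (-0.73), against -0.14 for all genes. Idh3a, the catalytic subunit of NAD-dependent isocitrate dehydrogenase, went from 44.7 and 42.5 to 207 and 201 CPM in WT (2.20 ± 0.066, adjusted p = 3.9e-07) and from 58.7 and 54.7 to 115 and 115 CPM in KO (1.01 ± 0.066, adjusted p = 1.6e-05). After RANKL it differed between KO and WT by -0.82 ± 0.066 (adjusted p = 8.5e-05). Control libraries had 107 and 102 CPM of Idh3a without RANKL. Idh3a was also the 1 gene of the list called at baseline, higher in KO (0.37 ± 0.066, adjusted p = 0.029), a call that none of the 8 fits without 1 library kept (adjusted p 0.066 to 0.21). Mdh2, malate dehydrogenase, went from 176 and 188 to 557 and 593 CPM in WT (1.65 ± 0.065, adjusted p = 1.3e-06).

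Of 4 subunits whose symbols the name rule leaves out, 3 rose in WT and 3 in KO, and 2 were lower in KO after RANKL. Cyc1, the cytochrome c1 subunit of complex III, went from 46.9 and 68.9 to 181.6 and 264 CPM in WT (1.93 ± 0.29, adjusted p = 0.00087), a larger difference than that of any of the 77 members. Among electron carriers and genes of coenzyme Q synthesis, 13 of 15 rose in WT and 9 in KO, and in KO against WT after RANKL 7 were lower and 2 higher, the latter a share near that of all genes. Cycs, cytochrome c, rose in both genotypes, from 7.98 and 8.78 to 20.8 and 22.1 CPM in WT (1.26 ± 0.10, adjusted p = 3.9e-05) and from 9.25 and 9.52 to 20.7 and 23.96 CPM in KO (1.16 ± 0.10, adjusted p = 6.9e-05). Its interaction term was -0.10 ± 0.14 (adjusted p = 0.68), with a positive sign under TMM factors (0.06), so that no difference in response was detected for the carrier between complexes III and IV. Coq2, which attaches the tail of coenzyme Q, was higher in KO after RANKL (0.74 ± 0.17, adjusted p = 0.01), a call lost without WT RANKL replicate 1 (0.059) or KO RANKL replicate 2 (0.066).

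Assembly factors, which build the complexes without staying in them, rose in 27 of 45 cases in WT and 23 in KO. In KO against WT after RANKL 11 were lower and 2 higher (median -0.26), a share of lower calls below that of all genes, and 29 were lower with the replicate term, a share above the 49.7% of all genes in that fit. Ndufaf4 of complex I assembly went from 11.3 and 10.7 to 38.8 and 36.3 CPM in WT (1.69 ± 0.089, adjusted p = 4.7e-06) and from 12.47 and 12.46 to 26.9 and 30.02 CPM in KO (1.13 ± 0.089, adjusted p = 4.2e-05). Cox18, which inserts a mitochondrially encoded subunit of complex IV into the membrane, was 1 of the 2 that were higher in KO. It went from 4.48 and 5.63 to 13.4 and 14.0 CPM in KO (1.29 ± 0.14, adjusted p = 0.00019) and was at 8.06 and 9.36 CPM in WT RANKL (0.60 ± 0.14, adjusted p = 0.01), a call lost without WT RANKL replicate 1 (0.062) or KO RANKL replicate 2 (0.054).

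Among mitochondrial ribosomal proteins, 57 of 77 rose in WT and 48 in KO, and 21 were lower and 2 higher in KO after RANKL (median -0.21), also a share of lower calls below that of all genes, and 49 were lower with the replicate term, again a share above that of all genes. Of 7 tested adenine nucleotide and phosphate carriers, outer membrane channels and the ATP synthase inhibitor, 6 rose in WT and 4 in KO, and 3 were lower in KO after RANKL. Slc25a5, an ADP/ATP carrier, went from 123 and 162 to 338 and 446 CPM in WT (1.46 ± 0.21, adjusted p = 0.00067). With the replicate number as a term the counts lower in KO after RANKL became 29 of 45 assembly factors and 49 of 77 ribosomal proteins. In mTg against Control no gene of any of these lists was called. Whether the lists differ from one another in their response to the genotype was not tested.

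The spread between replicates was itself uneven over the members. Replicate 2 libraries exceeded replicate 1 libraries by a median factor of 1.13 over the members, and of 1 over all genes. The factor passed 1.5 for 4 members, Atp5e (2.12), Cox7c (1.88), Ndufa2 (1.72) and Ndufc1 (1.54), and was lowest for Ndufa12 (0.71). The factor of Atp5e lay between 2.02 and 2.27 in all 6 conditions. In the labels replicate 1 is polyA RNA processed with TopHat and Cufflinks and replicate 2 is total RNA processed with HISAT2, HTSeq and edgeR, and Rn45s, the ribosomal RNA precursor, was at 742 to 1176 CPM in replicate 1 and 9778 to 21273 CPM in replicate 2. Atp5e, at 38.2 and 88.0 CPM in WT basal and 51.7 and 106 CPM in WT RANKL, had an adjusted p of 0.63 without the replicate term and 1.1e-06 with it, for a log2 difference of 0.34, which was -0.25 without WT basal replicate 1 and -0.16 without WT RANKL replicate 2.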

How the data were processed

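RNA was sequenced from 12 libraries of mouse bone marrow macrophages, 2 in each of 6 conditions. Per the study's methods, the authors used TopHat or HISAT2 for alignment against mm10 and HTSeq for counts per gene, and per the labels the tools were TopHat and Cufflinks for replicate 1 and HISAT2, HTSeq and edgeR for replicate 2, whose versions are not given in the sources used here. The WT and KO values were deposited as CPM, which sum to 1e+06 in each library. The Control and mTg values were deposited as raw counts. The replicate 1 files also hold RPKM, which the authors made by dividing by gene length. Whole reads were recovered from CPM for 100% of values within a tolerance of 0.01 reads. Of 24421 listed genes, 27 have names that a spreadsheet turned into dates.

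WT and KO libraries were fitted together with limma 3.58.1 (R 4.3.3) on log2(CPM + 1), with a trend and without composition factors, over the 11691 genes that reached 1 CPM in 2 or more of these 8 libraries. Fold changes on this scale understate those of low genes. Control and mTg counts were tested with the quasi-likelihood test of edgeR 4.0.16 with TMM over 12081 genes. DESeq2 1.42.0 was an alternative. P-values are two-sided and adjusted by Benjamini-Hochberg over all genes tested, with a threshold of 0.05. The fits were also run on simulated counts, drawn without any difference between replicate 1 and replicate 2 libraries. These data do have such a difference, so that run does not show how the fits behave here.

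The members and the gene lists were chosen with earlier results of these data known. Members were named when they were among the top 2 by mean CPM of their complex, the top 3 called differences in either direction of a comparison, an isoform pair, a core subunit, close to the level that defines membership, or called against most members. Atp5e, Atp5j2, Atp5s, Atp5sl, Cox7c, Ndufa2, Ndufa12, Ndufb2, Ndufb4, Ndufc1 and Uqcrq were named outside that rule, after their values were seen. The values of 1 member that the rule names are not reported here. Same-numbered libraries share RNA type and tools in the labels, and the log ratios of replicate 2 to replicate 1 correlated at 0.69 to 0.754 between conditions of the WT and KO libraries and at 0.744 between Control and mTg (11794 genes), so the number pairs the libraries. The fits described above carry no replicate term, and the fit with that term is given beside them as an alternative.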

Additional observations from a re-analysis of the deposited data

Results flagged for a closer look

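The RANKL response differed between genotypes, by the interaction term of limma, for 28 members, all smaller in KO. Among those whose values are given, the KO response minus the WT response was -1.15 for Sdhb, -1.01 for Cox7a1, -0.88 for Uqcrc2, -0.83 for Uqcrc1, -0.80 for Atp5b, -0.77 for Sdha, -0.74 for Ndufs3, -0.69 for Ndufv2, -0.68 for Ndufs1, -0.68 for Atp5a1, -0.66 for Atp5c1, -0.64 for Cox5b, -0.56 for Cox7a2l and -0.47 for Cox6a1 on the log2 scale. Each of these values uses both WT RANKL libraries, whose Lyz2 and Ifi202b levels stood apart from those of WT basal and KO libraries. The part of that difference in the responses was not tested.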

How the results depend on the processing

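No called result changed sign. Among the named genes whose fits were repeated, uncalled differences that did were the interaction of Cycs, 0.06 with TMM factors, with or without the block, 0.09 with quantile normalization, 0.05 by edgeR and by DESeq2 and 0 without KO RANKL replicate 1, Atp5e in WT after RANKL, -0.25 without WT basal replicate 1 and -0.16 without WT RANKL replicate 2, and Cox4i1 in KO after RANKL, 0.08 without KO RANKL replicate 1 or KO basal replicate 2. The replicate block, with the replicate number as a term, changed the counts of members to 51 higher and 7 lower in KO after RANKL, 3 higher and 8 lower in KO at baseline, 74 lower in KO against WT after RANKL, 71 with a smaller response in KO, and 2 higher and 7 lower in mTg. Among the named genes whose fits were repeated it changed the call of Cox7a2l in mTg, of Atp5e and Atp5j2 in WT after RANKL, of Cox4i1 and Cox7a1 in KO after RANKL and of Ndufs7 in KO against WT after RANKL, and no other call. TMM factors together with the replicate block gave 4 lower in WT after RANKL, 45 higher and 9 lower in KO after RANKL, 3 higher and 10 lower in KO at baseline, 68 lower in KO against WT after RANKL, and 56 smaller and 1 larger responses in KO. TMM factors alone gave 18 smaller responses, edgeR on the recovered reads 17 and DESeq2 17, with a median of -0.39 in each and also in TMM with the block. The median in WT after RANKL was 0.52 with TMM factors, with or without the block, 0.54 by edgeR, and 0.56 by DESeq2 and by quantile normalization. Quantile normalization gave 2 lower in WT after RANKL, 9 higher in KO after RANKL and 2 lower in KO at baseline, and DESeq2 also 2 lower at baseline. EdgeR gave 12 higher in KO after RANKL. With at least 1 CPM required in every library, which drops Cox6a2, 0 were lower in WT and 1 in KO after RANKL. Where no construction of the alternative is named, the cause was not tested. Shares of all genes stand above for the replicate block and for TMM factors alone. For the other alternatives they are not given, so those counts are read only beside the main counts.

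Leaving out 1 library, the counts of members higher ran from 45 to 59 in WT after RANKL, from 8 to 18 in KO after RANKL, and were 0 elsewhere. The counts lower ran from 1 to 1 in WT after RANKL, 1 to 2 in KO after RANKL, 0 to 1 in KO at baseline, 32 to 47 in KO against WT after RANKL, 19 to 24 for the interaction, and were 0 in mTg. Over the same fits the log2 difference of Atp5e in WT after RANKL ran from -0.25 to 0.93, that of Cox4i1 in KO after RANKL from -0.32 to 0.08 and the interaction of Cycs from -0.20 to 0. The members' median took either sign in KO against WT at baseline (-0.11 to 0.06) and in mTg (-0.11 to 0.07). It kept its sign in WT after RANKL (0.63 to 0.82) and in KO after RANKL (0.12 to 0.26). So it did in KO against WT after RANKL (-0.65 to -0.46) and in the interaction (-0.65 to -0.45). A fit that leaves 1 library in a group assumes that it varies like the other groups. Shares of all genes are not given for the counts of these fits.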
